A study of Mus musculus with 2 samples.

Results

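Interleukin 10 (IL-10), the receptors for IL-10, IL-4 and IL-13, and the genes by which macrophage polarization is commonly read were examined in bone marrow-derived macrophages (BMDMs) exposed to the supernatant of apoptotic cells. The 9 genes were Il10, Il10ra, Il10rb, Il4ra, Il13ra1, Arg1, Mrc1, Nos2 and Cd200r1, out of 18194 genes named on the array. All 19 probe sets that the array's annotation gives to a single one of these genes were used. One array was hybridized with RNA from BMDMs kept in medium and the other with RNA from BMDMs kept in apoptotic cell supernatant, for 1 hr each. The cells came from C57BL/6J females aged 8 weeks and were grown with M-CSF for more than 7 days. The supernatant came from W3 cells, a mouse T cell line that carries Fas, after 30 min with human Fas ligand and 60 min in medium with 1% FCS. Control macrophages received RPMI with 10% FCS, and no array was hybridized for supernatant from living W3 cells. An effect of apoptosis, of W3-conditioned medium and of the serum content therefore cannot be told apart. With 1 array per condition no difference has a replicate error or a test.

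IL-10 is a cytokine that restrains inflammatory gene expression in macrophages. It binds a receptor of the IL-10RA chain, which recognises the cytokine, and the IL-10RB chain, which is shared with other cytokines of the IL-10 family, and the receptor acts through JAK1, TYK2 and STAT3. IL-4 and IL-13 signal through IL-4RA, paired with the common gamma chain or with IL-13RA1, and activate STAT6. IL-4-treated mouse macrophages raise Arg1 and Mrc1, a state called alternative activation, while interferon gamma and bacterial products raise Nos2, a state called classical activation. These markers are usually read many hours after a stimulus.

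Values are MAS5 signals, a linear intensity for each probe set, and levels of different probe sets are not compared. Dim signals were judged against a floor of 38.4, taken from 80 probe sets of olfactory and vomeronasal receptors as the 95th percentile on the brighter array, and signals under it were set to it before ratios were formed. Of the 9 genes 8 were above the floor on both arrays, while 65.8% of all named genes were above it on at least 1 array. The exception was Nos2, the inducible nitric oxide synthase. Its probe set read 3.998 with medium and 2.26 with the supernatant, so no ratio is given. Among polarization markers within the 9 genes, Nos2 was thus the one that stayed under the floor at 1 hr, and Arg1 and Mrc1 did not.

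**Figure D1:**
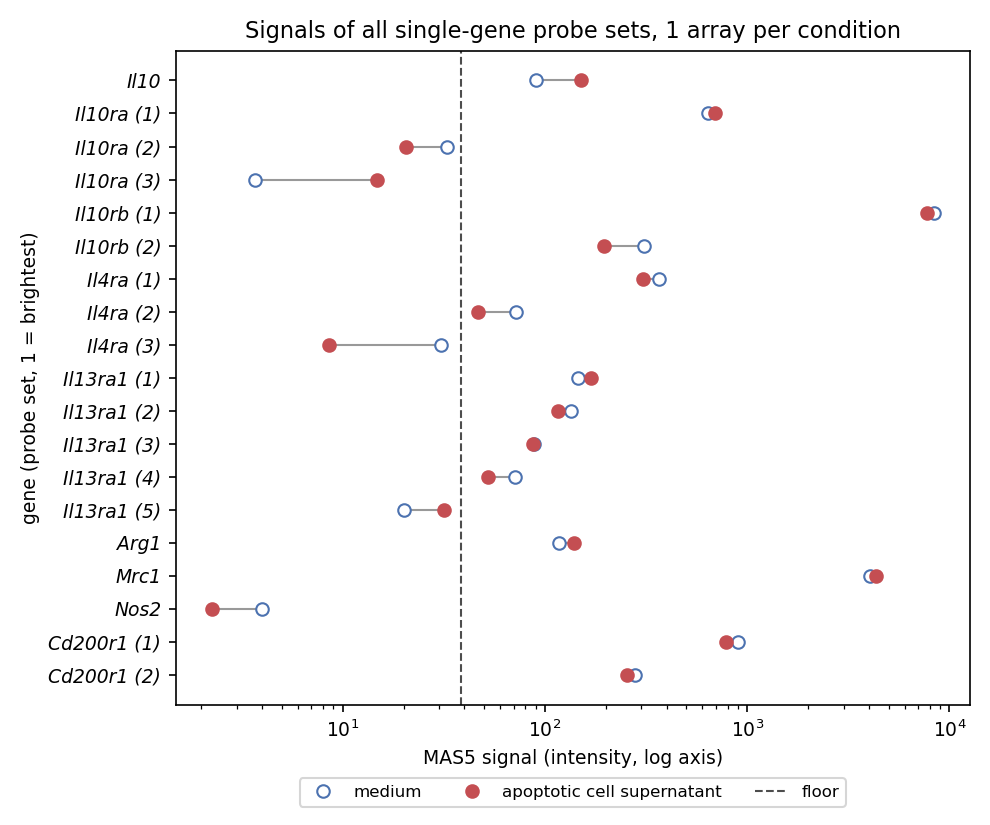
MAS5 signal (intensity, log axis) of all 19 single-gene probe sets of the 9 genes after medium (open blue circles) or apoptotic cell supernatant (filled red circles). The dashed line is the floor of 38.4, and each condition has 1 array. Il10 runs from 90.5 to 151, Nos2 lies left of the floor on both arrays, and 14 probe sets lie right of it on both.

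Il10 had the largest difference of the 9 genes. Its only probe set read 90.5 with medium and 151 with the supernatant, a ratio of 1.67 or 0.74 on the log2 scale. Both signals exceeded the floor and also 62.4, the top signal among the olfactory and vomeronasal receptor probe sets. Il10 was the 1 gene of the 8 measured that was at least 1.5-fold higher, where 3.71% of all 11977 measured genes were. Dim genes differed more often. Among the 3212 measured genes whose mean floored signal lay under 153.6, 4 times the floor, the shares were 8.16% at least 1.5-fold higher and 12.5% lower, and Il10 belongs to these dim genes. A log2 ratio above that of Il10 was found for 2.24% of all measured genes. None of the 9 genes reached 2-fold in either direction, against 0.96% of measured genes that were 2-fold higher and 0.843% lower, and none was at least 1.5-fold lower on its brightest probe set, against 4.47%. With the floor added to every signal as a pseudocount Il10 was 1.47-fold higher, short of 1.5-fold.

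The IL-10 receptor chains differed less. Il10ra, the chain that binds IL-10, read 637 and 689 (medium and supernatant, the order used from here on) on its brightest probe set, 1.08-fold higher. The other 2 probe sets of Il10ra stayed under the floor throughout. Il10rb, the shared chain, read 8358 and 7708, 1.08-fold lower. A second Il10rb probe set read 309 and 195 and was 1.58-fold lower. The probe sets of Il10rb thus had ratios in the same direction but of different size. Across the 5196 genes with at least 2 probe sets that exceeded the floor on each array, the log2 ratios of the brightest and the second differed with an SD that, divided by the square root of 2, was 0.25, or 1.19-fold. This spread says how far probe sets of a gene disagree here and holds no error between arrays or cultures. The differences of Il10ra and Il10rb on their brightest probe sets were smaller than it, and that of Il10 was larger.

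Il4ra, the chain used by both IL-4 and IL-13, read lower with the supernatant on both probe sets above the floor. The brightest read 366 and 305, 1.20-fold lower or -0.26 on the log2 scale, just past the spread between probe sets. After median-centring it lay inside that spread. The next read 72.2 and 46.9, 1.54-fold lower, with the supernatant signal close to the floor, and the last was under the floor on both arrays. Il13ra1, which pairs with IL-4RA, gave ratios on either side of 1. Its brightest probe set read 146 and 169, 1.16-fold higher, and the next read 134 and 116, 1.15-fold lower. A further Il13ra1 probe set read 88.2 and 87.2 and another 71.2 and 52.4, and the last was under the floor on both arrays. No direction can be given for Il13ra1. Of the 14 probe sets of these genes that exceeded the floor on each array, 1 was 1.5-fold higher or more and 2 were 1.5-fold lower or more, namely Il10 and the second probe sets of Il10rb and Il4ra. Over the whole array the matching shares of such single-gene probe sets were 3.34% and 4.6%.

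Arg1, which splits arginine into ornithine and urea, read 117 and 139, 1.18-fold higher. Mrc1, the mannose receptor CD206, read 4038 and 4336, 1.07-fold higher. Cd200r1, an inhibitory receptor of myeloid cells for CD200, read 906 and 783, 1.16-fold lower, and 279 and 256, 1.09-fold lower, on its second probe set. All 3 genes lay within the spread between probe sets with the deposited scaling, and Arg1 lay past it after median-centring. The median log2 ratio of the 8 measured genes was 0.11, and that of all measured genes -0.02.

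**Figure D2:**
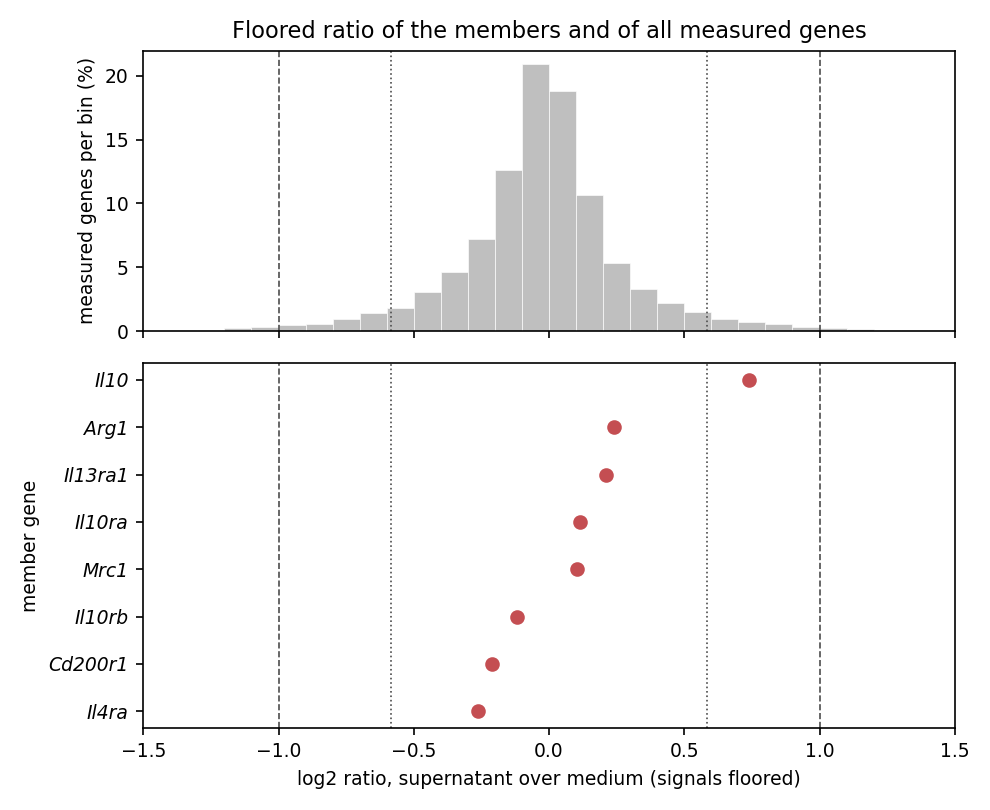
Share of all 11977 measured genes (upper panel, percent per bin of 0.1) and the 8 measured genes of the set (lower panel, points) by the log2 ratio of floored signals (supernatant to medium), with dotted lines at 1.5-fold and dashed lines at 2-fold. Il10 (0.74) lies past the dotted line and the other 7 genes lie between -0.26 and 0.24.

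The promoters of Il4ra, Il13ra1 and Mrc1 were taken from RefSeq (GRCm38.p6), as windows of 250 bases before to 50 after the transcription start. The other genes of the set were not in the promoter table used here. None of the 3 windows held TGACGTCA (the cAMP response element), TGACG (its shorter form), the AP-1 element TGANTCA, the NR4A element AAAGGTCA, TTCNNNGAA (the STAT3 element) or the STAT6 element, which has a longer spacer, on either strand. These motifs were found in 1.79%, 20.8%, 7.81%, 1.51%, 8.3% and 6.95% of all 32851 promoter windows, and TGACG also counts inside TGACGTCA. The Il4ra promoter is shown for a repeat seen when it was read. It carries CATGNAAAT 3 times on the forward strand, at -140, -68 and -35 from the start. This pattern, chosen from the window itself and searched on both strands, was found at least once in 1.41% of all windows and at least 3 times in 2 windows, that of Il4ra among them. The 150 bases before the Il4ra start, chr7:125552121-125552270 on the plus strand, read as follows, with the repeats in capitals.
Il4ra: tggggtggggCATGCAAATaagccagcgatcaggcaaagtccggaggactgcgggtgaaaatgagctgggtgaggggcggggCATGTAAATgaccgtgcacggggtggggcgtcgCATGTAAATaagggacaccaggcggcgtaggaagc
The arrays measure no binding to these sequences.

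Around the IL-10 genes, signalling components were above the floor, and the other IL-10 family cytokines with a probe set, Il20 and Il24, were not. Jak1 read 3138 and 3191, Tyk2 583 and 544, and Stat3 1319 and 1244 on their brightest probe sets. The second Stat3 probe set read 1120 and 1165. Its dim probe sets disagreed, 52.0 and 126 (2.43-fold higher) against 77.6 and 27.8 (at least 2.02-fold lower). A dim Tyk2 probe set read 8.04, under the floor, and 69.4. Of 11 measured genes of IL-10 receptor signalling and its targets, 3 were at least 1.5-fold higher and none lower, where the whole array had 3.71% higher and 4.47% lower. They were Nfil3, a transcriptional repressor (382 and 1783, 4.67-fold), Zfp36, which destabilises cytokine mRNAs (4248 and 7843, 1.85-fold), and Il1rn, the IL-1 receptor antagonist (407 and 683, 1.68-fold). The 2 dimmer Il1rn probe sets were 1.15-fold (190 and 218) and 1.34-fold (160 and 214) higher, short of 1.5-fold. Socs3, the feedback inhibitor often used to read STAT3 activity, read 999 and 1189. Of 12 other IL-10 family cytokines and receptor chains listed, 7 had a single-gene probe set. Of these 7, 6 never exceeded the floor, and Il20rb read 3.37 and 40.3. Among 15 measured regulators of Il10 transcription, 3 were at least 1.5-fold higher and 1 lower, again beside 3.71% and 4.47% of all measured genes, and 5 were higher after median-centring, quantile normalization or loess. Rel, an NF-kB subunit, was 2.35-fold higher (233 and 547), and Sik1, a kinase that restrains CREB coactivators, 2.07-fold (96.8 and 200). Sik1 was short of 2-fold with the floor as a pseudocount or with all probe sets averaged. Its second probe set read 34.3, under the floor, and 65.7, at least 1.71-fold higher. Cebpb was 1.58-fold higher (9955 and 15690) and 2.34-fold on its second probe set (2376 and 5570). Cebpd was 1.52-fold lower (756 and 498), but no longer 1.5-fold lower after median-centring or loess or with the floor as a pseudocount. Maf, a factor known to drive Il10, read 7647 and 7139 on its brightest probe set, 1.07-fold lower. The other 4 Maf probe sets that exceeded the floor on each array were lower by 1.27-, 1.23-, 1.44- and 3.21-fold, the last at 284 and 88.3. No single size can be given for Maf.

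The IL-4 and IL-13 pathway was present in its receptor-proximal parts, with no ligand above the floor. Il4 read 7.17 and 13.6 and Il13 3.55 and 5.81, all under the floor. Stat6 read 3825 and 3890. Il13ra2, a decoy receptor for IL-13, read 47.4 with medium and 23.3, under the floor, with the supernatant, and was at least 1.23-fold lower. Il2rg, the common gamma chain, had no single-gene probe set in the annotation used. Of 11 measured genes of this list 1 was at least 2-fold lower. That gene was Irs2, an adaptor of the IL-4 and insulin receptors (126 and 59.0, 2.13-fold), on 1 probe set, and it was short of 2-fold after median-centring or loess, with the floor set 2 times as high or with the floor as a pseudocount. Socs2, a cytokine signalling inhibitor, was 1.52-fold higher (72.4 and 110) and 1.94-fold on its second probe set (61.3 and 119). With the higher floor or the pseudocount no gene of this list was 1.5-fold higher, and after each of the 3 scalings 2 were.

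Markers of alternative activation were mixed. Of 17 measured genes of that list, 8 lay at least 1.5-fold and 4 at least 2-fold higher, 1 lay 1.5-fold and none 2-fold lower, and the median log2 ratio was 0.26. Of all measured genes 3.71% were 1.5-fold and 0.96% 2-fold higher, and 4.47% were 1.5-fold lower. With the floor 2 times as high the count of 8 became 5. Among the 8, Ccl24 (18.1 and 70.7) and Il1r2 (3.16 and 72.8) were under the floor with medium, so their ratios are bounds. Il1rn is also 1 of the 8 and was already counted among the IL-10 targets. The 4 at 2-fold were Egr2 (140 and 1706), Kdm6b, a histone demethylase (139 and 606, 4.37-fold), Klf4 (2463 and 7899, 3.21-fold) and Clec7a, the beta-glucan receptor dectin-1 (824 and 2025, 2.46-fold). Egr2, Kdm6b and Klf4 encode regulators of transcription. Kdm6b was 2.76-fold higher on its second probe set and Klf4 3.43-fold. In all 6 genes were under the floor on both arrays, Mgl2, Ccl17, Ccl22, Pdcd1lg2, Alox15 and Retnla, which encodes the secreted protein FIZZ1 (7.42 and 5.15). Chil3, which encodes Ym1, read 43.1 and 79.0. The 1 lower gene, Clec10a, a galactose-binding lectin named after its values were seen, was 1.83-fold lower (138 and 75.2).

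Markers of classical activation were also mixed. Of 16 measured genes 3 were 2-fold higher or more and 2 were 2-fold lower or more, with a median log2 ratio of 0.06, beside 0.96% and 0.843% of all measured genes. Il1b and Ptgs2 had the largest differences (81.3 and 1845, and 163 and 1486). A second Ptgs2 probe set read 30.6, under the floor, and 60.2, at least 1.57-fold higher. Next came Cd86, a costimulatory molecule, which was 3.51-fold higher on its brightest probe set (212 and 743) and 1.48-fold on the other (285 and 421). Cxcl11, an interferon-induced chemokine, was 2.07-fold lower (123 and 59.6) and Tnf 2.01-fold lower (503 and 251). Neither was 2-fold lower after median-centring, quantile normalization or loess or with the floor as a pseudocount. With the floor 2 times as high the count of 2 became 1, since 59.6 lies under that floor. The second Cxcl11 probe set was under the floor on both arrays (14.8 and 16.6). Il12b (32.4 and 12.3) and Il6 (2.40 and 5.604), like Nos2, never reached the floor.

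**Figure D3:**
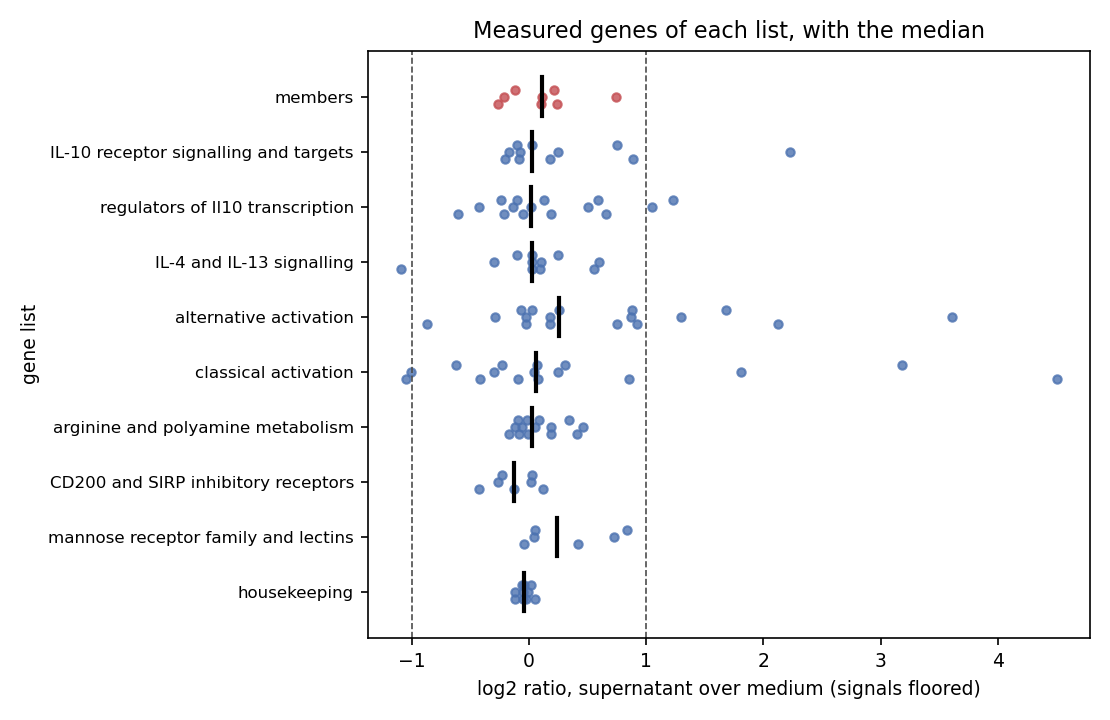
Each point is the log2 ratio (supernatant over medium, floored) of a measured gene in the set or in a related list with at least 5 measured genes. Bars are medians, and the dashed lines mark 2-fold. The set itself (members, red) stays inside the dashed lines, while the alternative activation list reaches 3.61 and the classical activation list 4.50, and no arginine, CD200 or housekeeping gene lies outside them.

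Of 14 measured genes of arginine transport and use and of polyamine metabolism, none was at least 1.5-fold higher or lower, and the log2 ratios ran from -0.17 to 0.46. Odc1, which makes putrescine from ornithine, read 8885 and 12195, 1.37-fold higher, and was 1.29-fold higher on each of its other probe sets. Nos3, the endothelial nitric oxide synthase, was 1.33-fold higher (79.3 and 105). Nos1 was 1.26-fold higher on its brightest probe set (106 and 134), and its other probe sets were under the floor with the supernatant. Odc1, Nos3 and Nos1 lay past the spread between probe sets, but Nos3 and Nos1 belong to the dim genes, which differed more often. No gene reached 1.5-fold either among 7 measured genes around CD200R1 and SIRPA (-0.42 to 0.12), where Cd200, the ligand, was under the floor (25.1 and 18.2). Of 6 measured lectins 2 were at least 1.5-fold higher, Clec4n, which encodes dectin-2 (468 and 837, 1.79-fold), and Clec4e, which encodes Mincle (3426 and 5648, 1.65-fold).

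On each side of each gene the 2 nearest protein-coding genes with a single-gene probe set were read as well, by RefSeq positions. Their distance was not limited, and Wdr44, read for Il13ra1, lies 12306082 bases from it. Of 36 neighbours with a probe set, 23 were measured, and 2 of these were at least 1.5-fold lower and none higher, beside 4.47% and 3.71% of all measured genes. Those 2, named after their values were seen, lie near Nos2. Lyrm9 (167 and 104, 1.605-fold) is the nearest such gene on one side, and Ksr1 (152 and 60.3, 2.52-fold) is the second on the other. Lgals9, which lies between Nos2 and Ksr1, read 1582 and 1543, and Ccnq, beyond Lyrm9, read 760.4 and 735. On one side of Il10, Il20 and Il24 were under the floor, and on the other Mapkapk2, a kinase of the p38 pathway, was 1.25-fold higher (1806 and 2261). The interferon receptor genes beside Il10rb, Ifnar2, Ifnar1 and Ifngr2, had ratios of 0.972, 1.07 and 1.03. Cd200r4, beside Cd200r1, was 1.34-fold lower (1098 and 818).

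Of 11 macrophage markers with a probe set, 10 were above the floor on both arrays, Csf1r and Adgre1 among them, and Timd4 was under it. Markers of other cells that can make IL-10 or carry these receptors were mostly dim. Of 12 T cell markers 4 were above the floor with medium and 3 with the supernatant, and the summed signals of the 12 were 850 and 713. The 4 were Cd28 (393 and 283), Cd5 (65.9 and 42.8), Cd8a (72.9 and 20.7) and Zap70 (208 and 313, 1.51-fold higher). Other Zap70 probe sets, and Cd3d, Cd3e and Cd3g, were under the floor. Of 6 B cell markers 4 and 3 were above it (sums 5413 and 5301), and Blnk made up most of both sums (5196 and 5142). Of 6 dendritic cell markers 2 and 1 were above it. Of 8 neutrophil markers 1 was above it with medium and 4 with the supernatant (sums 444 and 669). S100a8 made up most of both sums (391 and 462, 1.18-fold higher). S100a9 (5.85 and 73.0), Elane (9.89 and 51.8) and Ngp (19.9 and 51.5) passed the floor only with the supernatant. All 3 stayed under 76.8, 2 times the floor. Of 10 mast cell, basophil and eosinophil markers 1 was above it on each array, Gata2. Fewer cells of a type and less RNA per cell cannot be told apart in such bulk RNA, and the part of these cells in the signals of Il10, Arg1 or Cd200r1 was not tested.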

How the data were processed

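RNA from BMDMs was hybridized to Affymetrix arrays of the mouse genome, 1 per condition. The authors deposited a linear MAS5 intensity for each of 45101 probe sets. The submitters' notes and the study's methods name this software, and the scaling target and genome build are not given in the sources used here. The mean trimmed by 2% at each end was 500.0 on both arrays, so each array carries 1 scaling factor. The number of arrays limits the precision.

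Probe sets were named from the array's annotation, in which 34958 have a single gene, 932 several and 9211 are not listed. Those of several genes were not used. Symbols were checked through the Entrez identifier in RefSeq (34754 matched, 0 changed). A gene was represented by its brightest probe set and counts as measured when at least 1 array exceeds the floor. The genes, the lists and the rule for naming genes were chosen with earlier results of these data known. The naming rule took the 9 genes, fixed ligands and markers of their pathways, and up to 4 genes of each list with the largest log2 ratio at or beyond 1.5-fold. Some genes named here fall outside this rule, among them Socs3, Maf, Odc1, Nos1 and Nos3, and were not fixed by it. The 9 alternatives tried were 3 scalings (median-centred, quantile normalized, loess with a span of 30%), 4 treatments of dim signals and 2 choices of probe set. Tools were pandas 2.3.3 and numpy 2.4.6 under Python 3.11.15, with statsmodels 0.14.6 for the loess, scipy 1.17.1 for the trimmed mean and matplotlib 3.10.9 for plots. The steps were tested on simulated data, with folds planted only in genes far above the floor and noise smaller than the spread between probe sets. Dim genes such as Il10 were not covered by that test.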

Additional observations from a re-analysis of the deposited data

How the results depend on the processing

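No paired analysis was possible because there is only 1 array in each condition. For the 9 genes, 118 of 125 values and counts moved by less than the spread between probe sets, or by no more than 1.5 times for counts. Many of the 125 could not move, so this count does not measure robustness. The brightest probe sets of the 8 measured genes exceeded 76.8 on both arrays, so a lower, higher or absent floor left their ratios unchanged. Il10, Arg1, Mrc1 and Nos2 have 1 probe set each, without a suffix, so the choice of probe set changed nothing for them. Il10 ranged from 0.56 to 0.84 on the log2 scale. With the floor as a pseudocount 0 genes in place of 1 were at least 1.5-fold higher. With no floor Nos2 had a log2 ratio of -0.82, from 2 signals under the floor, and 1 gene was at least 1.5-fold lower. With all probe sets of a gene averaged on the log2 scale, which counts those under the floor, Il10ra had a log2 ratio of 0.48, Il10rb -0.39 and Il4ra -0.90, and 1 gene was at least 1.5-fold lower. Il4ra has only probe sets with a suffix, so no value without them. Median-centring moved the median of all measured genes from -0.02 to 0.08, and the log2 ratios of all 8 genes shifted with it. That shift took Arg1 and Il13ra1 past the spread between probe sets and Il4ra inside it. Of 360 list counts 62 moved by more than 1.5 times.

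Over all measured genes, 115 were at least 2-fold higher and 101 lower. After median-centring the split was 150 and 60, after quantile normalization 137 and 66, and with loess 136 and 63. With no floor it was 1865 and 2116, with the floor at the receptor median of 10.0 it was 975 and 1158, with a floor of 76.8 it was 77 and 27, and with all probe sets averaged 167 and 157. At 1.5-fold, 444 were higher and 535 lower, with no floor 2744 and 3150, with the lower floor 1833 and 2251, and with the higher one 238 and 239.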
